A study of Mus musculus with 20 samples.

Results

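Retinas of CrxRip/+ mice, which carry 1 copy of the dominant allele CrxRip beside a wild-type copy of Crx, were set against retinas of Crx-/- mice, which lack functional Crx, at postnatal day 2 (P2). The comparison uses the P2 samples labelled with these 2 genotypes, 4 of the 20 samples of the study, and all 566 genes of the P2 table. Each genotype had 2 samples and each sample was pooled from 2 retinas. All mice were C57BL/6J by their labels, and RNA came from the whole retina. The study also sequenced CrxRip/Rip, Nrl-/- and wild-type retinas, again in 2 samples each, and repeated all 5 genotypes at postnatal day 21 (P21). Nothing in the labels ties the samples to separate litters, so p-values measure the spread between these samples.

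Crx is a homeobox transcription factor of photoreceptor precursors, and with Otx2, Nrl and Nr2e3 it turns on the genes that rods and cones need to catch light. Nrl directs precursors to the rod fate, and Nr2e3 keeps cone genes off in rods. CrxRip is a frameshift allele that acts dominantly, so the comparison asks how a retina with an altered Crx protein differs from one with no Crx function. At P2 cones have been born, rods are still being born, and neither has outer segments.

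The values are FPKM, a fragment count scaled for transcript length and for the size of the library, as deposited by the authors with 1 decimal. Every gene of the table had passed the authors' own thresholds in at least 1 of their 10 comparisons, so every count here refers to genes that the authors had picked because they differed between some of these samples. Crx itself was not among the genes of the P2 table, and its level is no check of the genotypes here. The summed FPKM was 5181.4 and 5298.0 in CrxRip/+ and 5456.0 and 5508.0 in Crx-/-, within the range of 4168.3 to 5777.3 over all 10 samples of that age. The rod factor Nrl, at 63.0 and 73.1 FPKM in CrxRip/+ and 73.0 and 81.6 FPKM in Crx-/-, marks photoreceptor precursors in all 4 samples. Differences below are differences of log2(FPKM + 1), CrxRip/+ minus Crx-/-, with the limma standard error (SE), and for genes of low FPKM they are smaller than the log2 fold. A gene was called where its limma p was under 0.05 after Benjamini-Hochberg adjustment over all 566 genes. The 2 samples against 2 allow no exact permutation p below 0.33 (two-sided), so a call rests on the spread that limma pooled over genes and genotypes.

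Several cone transcripts, Samd7 and Obox6 were among the genes that fell furthest in CrxRip/+ relative to Crx-/-. The gene lists used below were chosen with earlier results of these data known. CrxRip/+ retinas had less of 9 of the 10 cone genes in the table, and 8.32-fold less Samd7, than retinas with no Crx function at all. The early rod factors Nrl and Nr2e3 were not called. Of the 7 rod genes reported here 2 were lower, while 3 photoreceptor synapse genes and Ankrd33 were higher in CrxRip/+. In all, 162 of 566 genes were called (28.6%), of which 91 were higher in CrxRip/+ (16.1%) and 71 lower (12.5%). Rescaling the samples by the median of ratios moved the median of all genes from 0.09 to -0.01 on the log2 scale. It then gave 41 higher (7.24%) and 84 lower (14.8%), so the split between the directions depends on the scaling. All 71 lower calls held under it and 50 of the 91 higher calls were lost. Without 1 sample the number called was 86 (first CrxRip/+ sample left out), 93 (second CrxRip/+ sample), 90 (first Crx-/- sample) and 78 (second Crx-/- sample). In the authors' deposited table, 172 of the genes (30.4%) had an adjusted p under 0.05 for this comparison, 81 higher and 91 lower in CrxRip/+, and 123 of them were also called here.

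**Figure D1:**
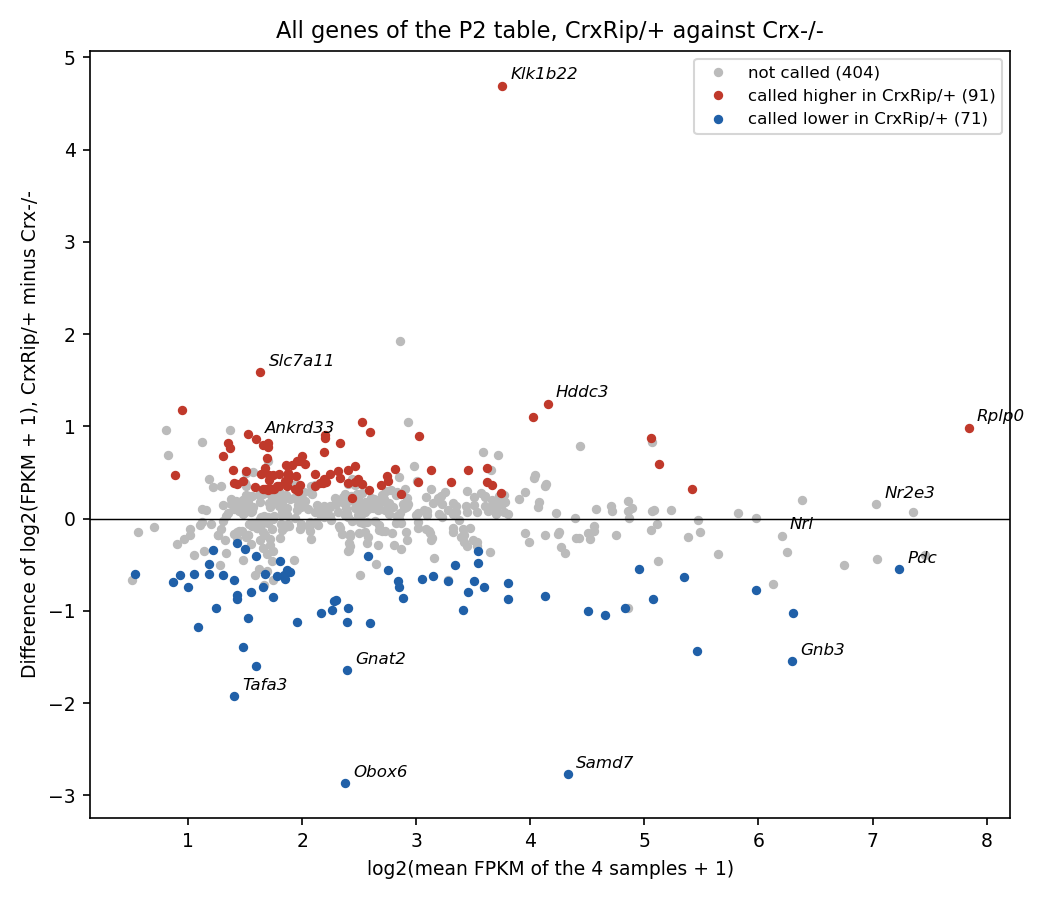
Each point is 1 of the 566 genes, with log2 of its mean FPKM over the 4 samples plus 1 on the x axis and the difference of log2(FPKM + 1), CrxRip/+ minus Crx-/-, on the y axis. The 91 genes called higher in CrxRip/+ are red and the 71 called lower are blue; Obox6 and Samd7 lie lowest, and Klk1b22, listed at 0 in both Crx-/- samples, lies highest.

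Of the 18 photoreceptor transcription factors on the list, 7 were in the table, and 3 fell, 1 rose and 3 were not called, where 12.5% of all genes were lower and 16.1% higher. Samd7, a repressor that silences genes in rods as part of a Polycomb complex, was at 4.4 and 3.8 FPKM in CrxRip/+, against 29.3 and 38.9 FPKM in Crx-/-. The wild-type samples had 20.7 and 27.0 FPKM, so both CrxRip/+ samples lay far below, and both Crx-/- samples above, the wild-type pair. The difference was -2.77 (SE 0.171, adjusted p = 3.29e-05). Rxrg, a retinoid receptor of immature cones, had 4.2 and 4.7 FPKM in CrxRip/+ and 6.5 and 7.5 FPKM in Crx-/-, and it fell by 0.55 (adjusted p = 0.00915). The pairs did not overlap, but the call was lost without the first CrxRip/+ sample (adjusted p = 0.0614) or without the second Crx-/- sample (0.0737). Sall3, a zinc finger factor of cone development, was low in all 4 samples, at 0.9 and 0.7 FPKM in CrxRip/+ and 1.4 and 2.1 FPKM in Crx-/-. Its fall of 0.60 (adjusted p = 0.0188) was lost without the second CrxRip/+ sample (adjusted p = 0.099), without the second Crx-/- sample (0.11) and in a fit of the 4 samples alone (0.068).

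Ankrd33 moved the other way. It encodes a repressor known in mouse for holding down rod and cone genes in photoreceptors, also called Panky. Its level was 2.8 and 3.0 FPKM in CrxRip/+, against 1.2 and 1.1 FPKM in Crx-/- and 4.3 and 4.1 FPKM in wild type. CrxRip/+ stood between Crx-/- and wild type, with no overlap, and the difference was 0.86 (SE 0.0862, adjusted p = 0.000467).

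Nrl, at the values given above, differed by -0.18 with a 95% interval of -0.50 to 0.13 (adjusted p = 0.355), and its pairs touched at 73.1 and 73.0 FPKM. Nr2e3 had 121.1 and 153.3 FPKM in CrxRip/+ and 112.4 and 133.2 FPKM in Crx-/-, overlapping pairs, with a difference of 0.15 and an interval of -0.23 to 0.54. Thrb, the thyroid hormone receptor that sets the identity of M cones, had 3.9 and 4.0 FPKM in CrxRip/+ and 3.2 and 3.9 FPKM in Crx-/-, with an interval of -0.08 to 0.33. All 3 intervals lie within a change of 1 on the log2 scale either way. The remaining 11 factors of the list were not analysed here.

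**Figure D2:**
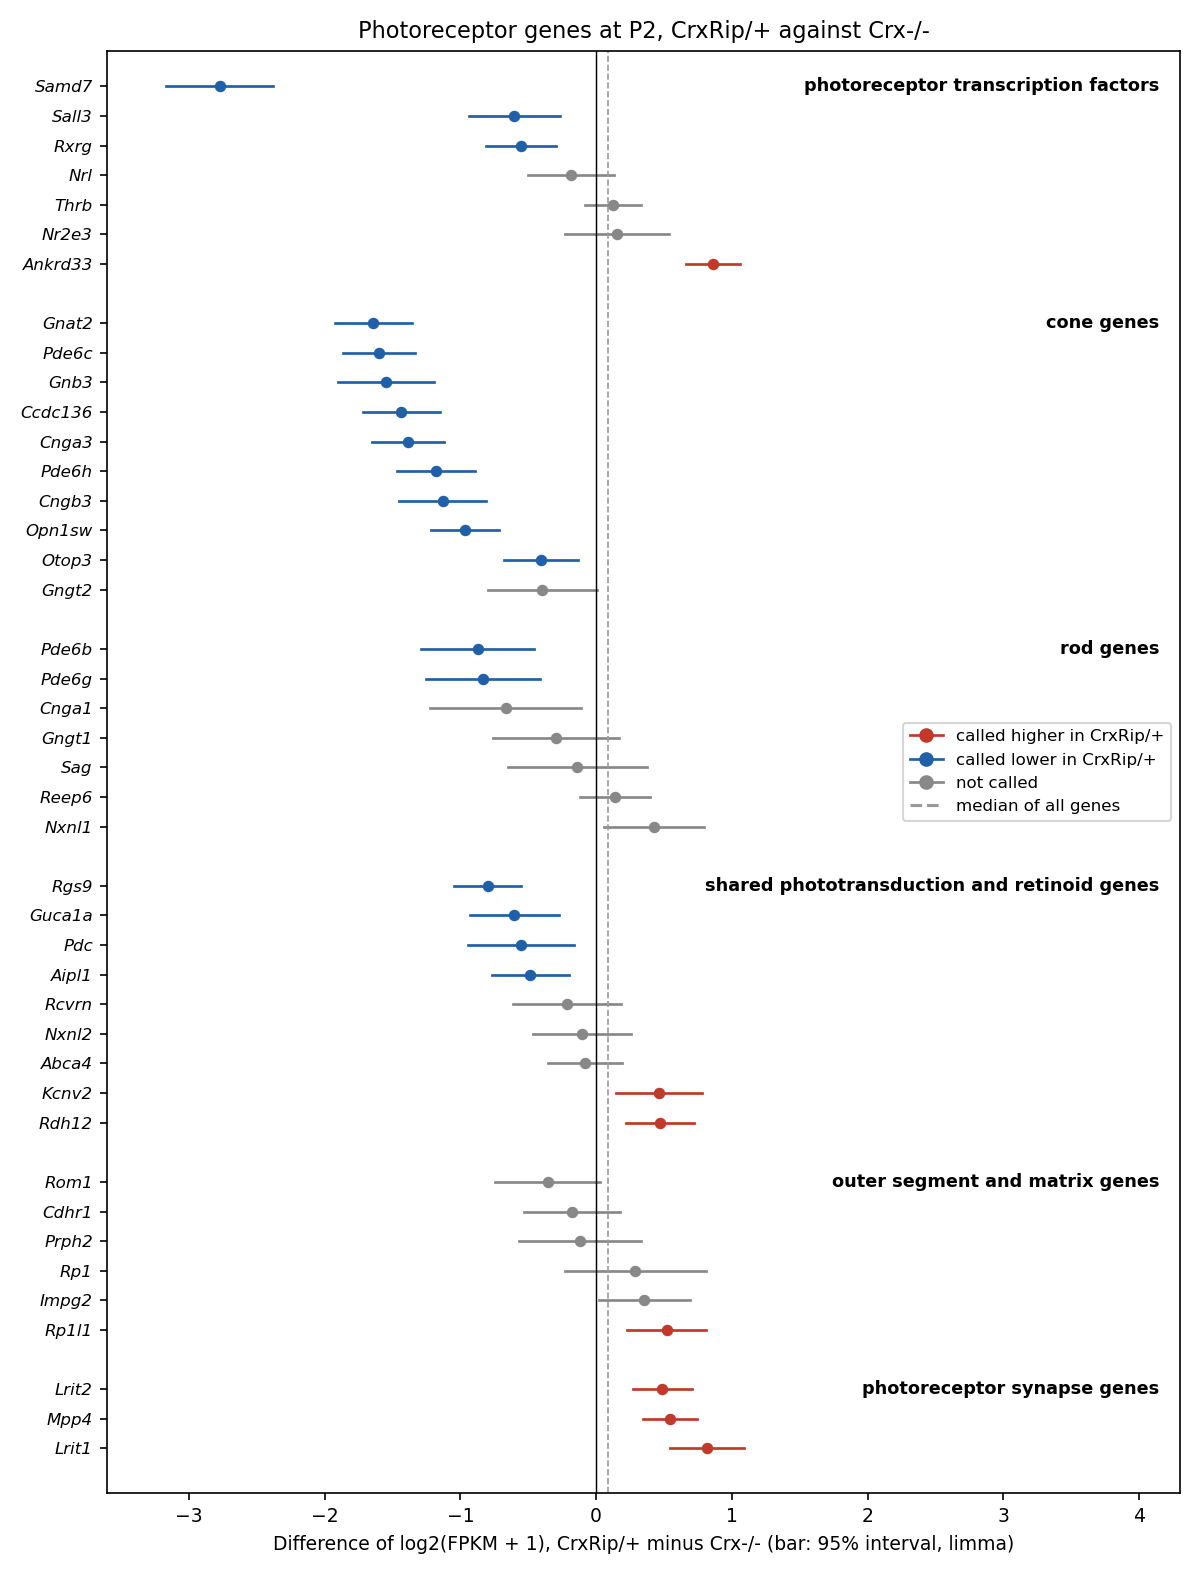
Difference of log2(FPKM + 1), CrxRip/+ minus Crx-/-, for each photoreceptor gene of the P2 table, by list, with its 95% limma interval; the dashed line is the median of all genes, 0.09. Samd7 and all 10 cone genes, of which 9 were called, lie to the left and the 3 synapse genes to the right.

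Cone genes fell almost throughout. Of 12 on the list, 10 were in the table, and 9 were called lower in CrxRip/+ and 0 higher, where 12.5% of all genes were lower. The median difference was -1.28, beside 0.09 for all genes. In all 10 both CrxRip/+ samples lay below both Crx-/- samples, a pattern that 26.5% of the table shared. In bulk tissue, fewer cones and less RNA per cone cannot be told apart.

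Of the 3 cone transducin subunits, 2 fell. Gnat2, the alpha subunit, was at 1.5 and 1.6 FPKM in CrxRip/+, against 6.7 and 7.2 FPKM in Crx-/- and 10.2 and 11.7 FPKM in wild type. The order was CrxRip/+, Crx-/-, wild type from low to high, with no overlap, and the difference was -1.64 (SE 0.124, adjusted p = 9.96e-05). Gnb3, the beta subunit, which ON bipolar cells also make, was at 35.1 and 43.2 FPKM in CrxRip/+, against 109.2 and 122.4 FPKM in Crx-/- and 96.8 and 111.7 FPKM in wild type. Here Crx-/- overlapped wild type and CrxRip/+ was lower than both, by 1.55 below Crx-/- on the log2 scale (adjusted p = 0.000467). Gngt2, the gamma subunit and the most abundant gene of the list, had 138.6 and 164.0 FPKM in CrxRip/+ and 178.9 and 220.5 FPKM in Crx-/-. Its pairs did not overlap, but it was the 1 cone gene not called by limma, with a difference of -0.40 and a 95% interval of -0.79 to 0.00 (adjusted p = 0.122). The authors' own adjusted p for Gngt2 was 0.00207, with a log2 fold change of -0.44.

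Both subunits of the cone phosphodiesterase, the enzyme that breaks down cyclic GMP in light, fell in CrxRip/+. The catalytic subunit Pde6c had 0.4 and 0.6 FPKM in CrxRip/+, against 3.2 and 3.9 FPKM in Crx-/- and 2.1 and 2.3 FPKM in wild type. Crx-/- was the highest of the 3 genotypes, and the difference was -1.60 (SE 0.115, adjusted p = 8.16e-05). Pde6h, the inhibitory subunit, had 0.3 FPKM in both CrxRip/+ samples, against 1.7 and 2.2 FPKM in Crx-/- and 7.0 and 8.6 FPKM in wild type. For this subunit both mutants lay far below wild type, and CrxRip/+ fell by a further 1.18 relative to Crx-/- (adjusted p = 0.000641).

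The subunits of the cone cyclic nucleotide-gated channel, which carries the light response, also fell in CrxRip/+. Cnga3 had 0.5 and 0.6 FPKM in CrxRip/+, against 3.0 and 3.1 FPKM in Crx-/- and the same 3.0 and 3.1 FPKM in wild type. Cngb3 had 2.6 and 3.0 FPKM in CrxRip/+, against 7.4 and 7.2 FPKM in Crx-/- and 6.7 and 7.0 FPKM in wild type. Both genes were low in CrxRip/+ alone among these 3 genotypes, with differences of -1.39 (adjusted p = 0.000185) and -1.13 (adjusted p = 0.00101).

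The S opsin gene Opn1sw, which encodes the visual pigment of short-wave cones, had 0.6 FPKM in both CrxRip/+ samples, against 1.8 and 2.5 FPKM in Crx-/- and 40.6 and 43.0 FPKM in wild type. It was thus nearly lost in both mutants, and still 0.97 lower on the log2 scale in CrxRip/+ than in Crx-/- (SE 0.108, adjusted p = 0.000641). Ccdc136, the next protein-coding gene to Opn1sw in the RefSeq annotation, had 22.6 and 22.9 FPKM in CrxRip/+, against 57.3 and 69.6 FPKM in Crx-/- and 50.7 and 54.5 FPKM in wild type. Unlike Opn1sw it was no lower in Crx-/- than in wild type, and it fell by 1.43 in CrxRip/+ (adjusted p = 0.000212). Otop3, a proton channel gene, had 3.7 and 4.6 FPKM in CrxRip/+ and 5.3 and 6.3 FPKM in Crx-/-, with 10 and 10.8 FPKM in wild type. Its difference of -0.40 (adjusted p = 0.039) was the smallest of the 9. It was not called without the first CrxRip/+ sample (adjusted p = 0.199), the first Crx-/- sample (0.0537) or the second Crx-/- sample (0.22), or in a fit of the 4 samples alone (0.0923).

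**Figure D3:**
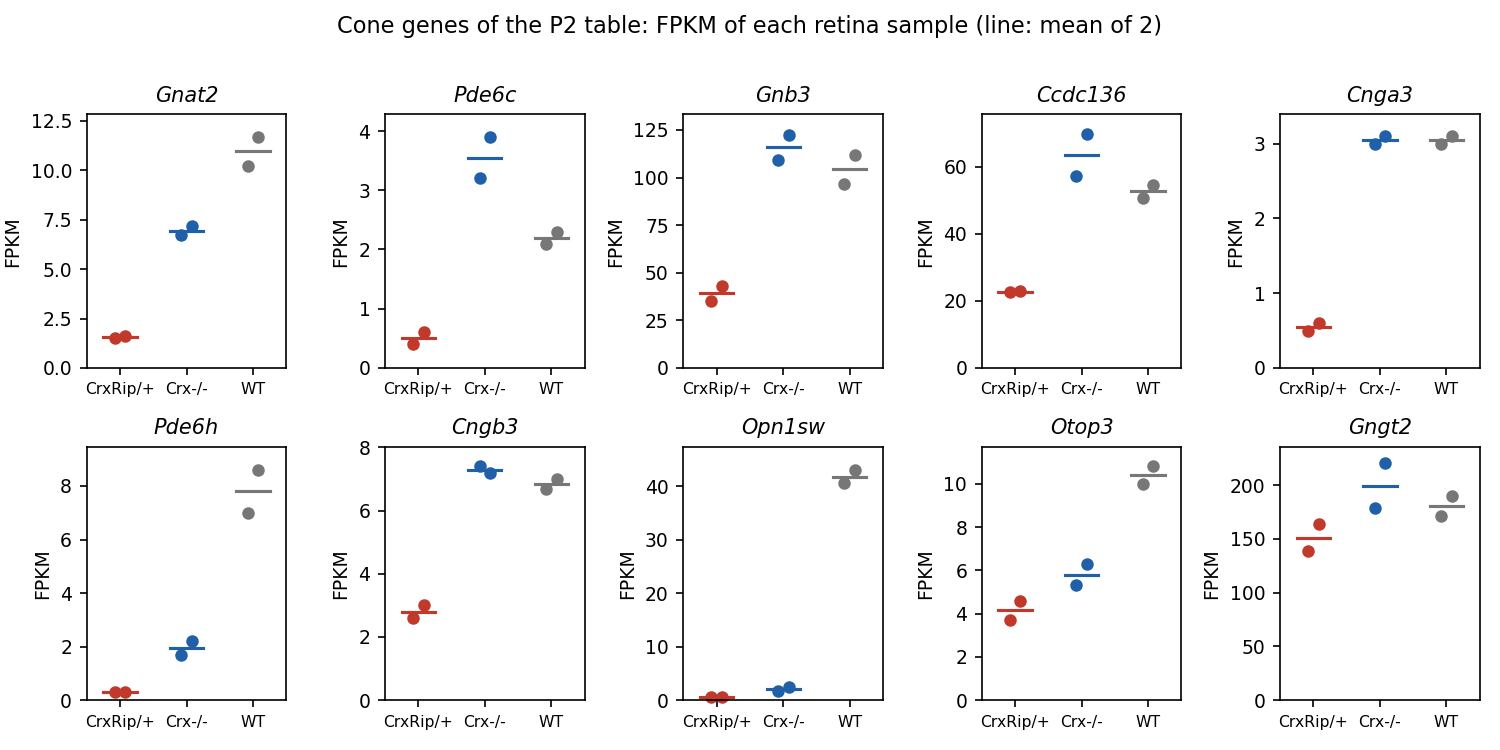
FPKM of the 10 cone genes in each P2 sample, with CrxRip/+ left of Crx-/- and wild type last; points are samples and horizontal lines are group means. Both CrxRip/+ samples lie below both Crx-/- samples in every panel, and Opn1sw and Pde6h are low in both mutants beside wild type.

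Of 12 rod genes on the list, 7 were in the table, and 2 fell, 0 rose and 5 were not called, where 12.5% of all genes were lower and 16.1% higher. The median difference was -0.29. Pde6b, a catalytic subunit of the rod phosphodiesterase, had 7.9 and 9.8 FPKM in CrxRip/+ and 15 and 19.1 FPKM in Crx-/-, a fall of 0.87 (adjusted p = 0.0104). Pde6g, its inhibitory subunit, had 9.8 and 13.4 FPKM in CrxRip/+ and 19.5 and 23.1 FPKM in Crx-/-, a fall of 0.83 (adjusted p = 0.0128). Their CrxRip/+ samples were low without overlap, but both calls were lost without the first CrxRip/+ sample (adjusted p = 0.0623 for Pde6b and 0.0728 for Pde6g) or without the second Crx-/- sample (0.0814 and 0.0916). Without either of these samples 0 of these 7 rod genes were called lower. The Pde6b call was also lost with a pseudocount of 0.1 (adjusted p = 0.0712).

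Among the rod genes not called was Cnga1, the rod channel subunit (limma adjusted p = 0.0724). It was at 0.1 FPKM in both CrxRip/+ samples and at 0.6 and 0.9 FPKM in Crx-/-, both near the rounding of the table. Wild type had 3.1 and 6.2 FPKM. With a pseudocount of 0.1, limma called Cnga1 lower in CrxRip/+ (adjusted p = 0.0481). The authors' own adjusted p for Cnga1 was 4.43e-21, with a log2 fold change of -2.81. Sag, the rod arrestin, had 43.8 and 39.4 FPKM in CrxRip/+ and 44.6 and 47.2 FPKM in Crx-/-, with a 95% interval of -0.65 to 0.37. Gngt1, the gamma subunit of rod transducin, had 8.5 and 9.0 FPKM in CrxRip/+ and 9.8 and 12.2 FPKM in Crx-/-. For Sag and Gngt1 both CrxRip/+ values lay just below both Crx-/- values. The differences were -0.14 (SE 0.222) for Sag and -0.29 (SE 0.201) for Gngt1, whose 95% interval was -0.76 to 0.17. Nxnl1, which encodes rod-derived cone viability factor, had 1.5 and 1.7 FPKM in CrxRip/+ and 0.7 and 1.2 FPKM in Crx-/- (adjusted p = 0.0801). Reep6, which rods use to move membrane proteins, had 4.2 and 3.4 FPKM in CrxRip/+ and 3.1 and 3.6 FPKM in Crx-/-, an overlap.

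Of 19 phototransduction and retinoid genes that rods and cones share, 9 were in the table, and 4 fell, 2 rose and 3 were not called. Over all genes 12.5% were lower and 16.1% higher, and after rescaling, which left 0 of the 9 higher, 7.24% were higher. Rgs9, which speeds the shut-off of transducin, had 6.7 and 7.3 FPKM in CrxRip/+, against 11.7 and 14.2 FPKM in Crx-/- and 10.4 and 10.6 FPKM in wild type. It fell by 0.80 (adjusted p = 0.00148) and stayed called with each sample left out in turn. Pdc, or phosducin, which binds transducin beta-gamma, had 110.5 and 131.6 FPKM in CrxRip/+ and 163.4 and 191.9 FPKM in Crx-/-, and its call (adjusted p = 0.0439) was lost with any of the 4 samples left out (adjusted p 0.0661 to 0.221) and in a fit of these 4 alone (0.0762). Aipl1, a chaperone for phosphodiesterase, had 7.9 and 9.5 FPKM in CrxRip/+ and 11.6 and 13.5 FPKM in Crx-/-. Guca1a, an activator of guanylate cyclase, had 0.2 and 0.1 FPKM in CrxRip/+ and 0.9 and 0.6 FPKM in Crx-/-. The CrxRip/+ samples were lower throughout for both, by 0.48 (adjusted p = 0.0214) and 0.60 (adjusted p = 0.0183). In a fit of the 4 samples alone neither was called (adjusted p = 0.0655 and 0.0766). With samples left out, Aipl1 was lost without the first CrxRip/+ or the second Crx-/- sample (adjusted p = 0.125 and 0.145). Guca1a was lost without either CrxRip/+ sample or the first Crx-/- sample (adjusted p 0.0514 to 0.0917).

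The 2 that rose were Rdh12 and Kcnv2. Rdh12, a retinol dehydrogenase of the inner segment, had 1.2 and 1.1 FPKM in CrxRip/+, against 0.5 and 0.6 FPKM in Crx-/- and 2.7 and 2.9 FPKM in wild type. Kcnv2, a potassium channel subunit of the inner segment, had 3.1 and 3.4 FPKM in CrxRip/+, against 1.8 and 2.4 FPKM in Crx-/- and 5.5 and 6.8 FPKM in wild type. CrxRip/+ lay between Crx-/- and wild type for both, with differences of 0.47 (adjusted p = 0.016) and 0.46 (adjusted p = 0.0403), and with means 2.09-fold and 1.55-fold those of Crx-/-. Both calls were lost under the rescaling (adjusted p = 0.0568 and 0.105), in a fit of the 4 samples alone (0.0532 and 0.0601) and without either CrxRip/+ sample or the first Crx-/- sample (adjusted p 0.0638 to 0.192 when a sample was left out), and that of Kcnv2 with a pseudocount of 0.1 (0.0609). Recoverin (Rcvrn), Abca4 and Nxnl2 were not called.

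Outer segment and matrix genes were close to the table as a whole. Of 13 on the list, 6 were in the table, with a median of 0.08, and 1 rose, where 16.1% of all genes were higher. After rescaling 0 of the 6 were called higher, where 7.24% of all genes were. Rp1l1, a protein of the photoreceptor axoneme, had 4.7 and 5.0 FPKM in CrxRip/+ and 2.7 and 3.5 FPKM in Crx-/-, a difference of 0.52 (adjusted p = 0.0197) that was not called under the rescaling, without either CrxRip/+ sample or without the first Crx-/- sample (adjusted p 0.0619 to 0.103 when a sample was left out). Rom1 and Prph2, the partners that shape outer segment discs, were not called; Rom1 had 58.1 and 73.4 FPKM in CrxRip/+ and 78.0 and 90.3 FPKM in Crx-/-, and Prph2 had 28.4 and 33.3 FPKM in CrxRip/+ and 29.7 and 37.8 FPKM in Crx-/-. Rp1, Cdhr1 and Impg2 were not called either. The authors' own adjusted p for Rom1 was 0.0139, with a log2 fold change of -0.38.

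All 3 photoreceptor synapse genes in the table, of 9 on the list, rose, where 16.1% of all genes were higher and 7.24% after rescaling. In all 3 both CrxRip/+ samples lay above both Crx-/- samples, as in 41.7% of the table. They were called under the rescaling too. Mpp4, a scaffold of the photoreceptor terminal, had 2.6 and 3.0 FPKM in CrxRip/+, against 1.5 and 1.7 FPKM in Crx-/- and 6.1 and 6.4 FPKM in wild type. Lrit1, a leucine-rich repeat protein of the photoreceptor synapse, had 3.2 and 3.1 FPKM in CrxRip/+, against 1.3 and 1.4 FPKM in Crx-/- and 4.6 and 6.2 FPKM in wild type. CrxRip/+ stood between Crx-/- and wild type for both, with differences of 0.55 (SE 0.0863, adjusted p = 0.00303) and 0.82 (SE 0.118, adjusted p = 0.00208). Lrit2, the next gene, had 4.2 and 4.9 FPKM in CrxRip/+ and 2.8 and 3.1 FPKM in Crx-/-, a difference of 0.49 (adjusted p = 0.00736), and was not called without the second CrxRip/+ sample (adjusted p = 0.0502) or without the first Crx-/- sample (0.0509). The annotated loci of Lrit1 and Lrit2 overlap, so how reads were shared between them is uncertain.

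The promoters of 4 of these genes are shown because the data place them differently: Samd7 and Gnat2 fell, Lrit1 rose, and Opn1sw was low in both mutants beside wild type. They are the 250 bases before the annotated start, read 5′ to 3′ on the gene's strand from RefSeq promoters of GRCm38.p6. Capitals mark TAATCC, a core that Crx and Otx2 bind, or GGATTA, the same letters on the other strand. Samd7 lies at chr3:30746043-30746292 on the plus strand, Gnat2 at chr3:108092816-108093065 on the plus strand, Lrit1 at chr14:37054580-37054829 on the plus strand and Opn1sw at chr6:29380514-29380763 on the minus strand.
Samd7: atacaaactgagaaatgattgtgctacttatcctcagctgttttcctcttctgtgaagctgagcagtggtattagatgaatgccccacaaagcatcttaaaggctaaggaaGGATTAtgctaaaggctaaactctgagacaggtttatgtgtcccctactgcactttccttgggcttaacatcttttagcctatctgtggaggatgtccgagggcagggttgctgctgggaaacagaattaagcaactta
Gnat2: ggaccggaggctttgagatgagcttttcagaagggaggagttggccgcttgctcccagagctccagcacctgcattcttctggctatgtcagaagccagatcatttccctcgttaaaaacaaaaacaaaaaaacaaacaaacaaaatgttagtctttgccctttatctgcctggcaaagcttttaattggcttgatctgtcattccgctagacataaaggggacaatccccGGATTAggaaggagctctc
Lrit1: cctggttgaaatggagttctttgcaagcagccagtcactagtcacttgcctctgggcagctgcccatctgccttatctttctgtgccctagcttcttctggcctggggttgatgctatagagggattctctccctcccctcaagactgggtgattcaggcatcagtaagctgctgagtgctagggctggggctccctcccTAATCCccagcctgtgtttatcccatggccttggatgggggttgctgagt
Opn1sw: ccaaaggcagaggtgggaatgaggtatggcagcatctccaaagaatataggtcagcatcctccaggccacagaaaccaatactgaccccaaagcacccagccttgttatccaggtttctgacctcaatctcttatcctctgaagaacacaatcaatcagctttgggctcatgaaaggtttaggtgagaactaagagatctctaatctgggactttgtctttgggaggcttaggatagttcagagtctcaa
The match began 139 bases before the start in Samd7, 19 in Gnat2 and 50 in Lrit1, and no match lay in the Opn1sw window. Promoters were matched for 443 of the 566 genes. A match on either strand lay in 10.4% of these, in 11.1% of the 72 higher genes with a promoter and in 16.7% of the 54 lower genes, and in 7.21% of all 27025 genes of the promoter table. Among the 30 genes of the photoreceptor lists with a promoter, 14 had one (46.7%). They were 5 of 13 that fell (38.5%), 3 of 4 that rose (75%) and 6 of 13 not called (46.2%), so the letters were found in all 3 groups. A match is a description of these letters and not a bound site.

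Obox6, a homeobox gene next to Crx in the RefSeq annotation, was, with Samd7, among the called genes that fell furthest. It was at 0.2 and 0.3 FPKM in CrxRip/+, against 7.8 and 8.4 FPKM in Crx-/- and 0.3 FPKM in both wild-type samples. It was high in Crx-/- alone among these 3 genotypes, and CrxRip/+ lay at the wild-type level, a difference of -2.86 (SE 0.127, adjusted p = 9.61e-06).

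Bipolar genes, from a cell type that is born with late rods, were lower where called. Of 15 on the list, 5 were in the table, and 3 fell and 2, Trpm1 and Pcp2, were not called, where 12.5% of all genes were lower. After rescaling 4 of the 5 were called lower, where 14.8% of all genes were. Lhx4, a homeobox factor of cone bipolar cells that is also made in cones, had 7.9 and 8.1 FPKM in CrxRip/+, against 13.2 and 15 FPKM in Crx-/- and 8.2 and 8.8 FPKM in wild type. CrxRip/+ was close to wild type and Crx-/- was high, with a difference of -0.74 (adjusted p = 0.00208). Cabp5, a calcium-binding protein, had 0.4 FPKM in both CrxRip/+ samples, against 1.4 and 1.1 FPKM in Crx-/- and 3.6 and 3.1 FPKM in wild type, a fall of 0.68 (adjusted p = 0.00297). Lhx3 had 2.5 and 1.5 FPKM in CrxRip/+ and 3.0 and 3.9 FPKM in Crx-/-, and its call (adjusted p = 0.0413) was lost without the second CrxRip/+ sample (adjusted p = 0.202) or either Crx-/- sample (0.0628 and 0.235). It was also lost in a fit of the 4 samples alone (0.11), with a pseudocount of 0.1 (0.0504) and with the replicate number as a block (0.0519). Wild type had 1 and 0.8 FPKM of Lhx3, so the samples of both mutants lay above wild type.

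Markers of other cells were few in the table. The lists of horizontal, amacrine, microglial and lens genes had 0 members in it. The ganglion cell gene Pou4f3 (1.7 and 1.9 FPKM in CrxRip/+, 1.8 and 1.5 FPKM in Crx-/-) and the glial gene Gfap (6.7 and 12.3 FPKM in CrxRip/+, 6.5 and 14.8 FPKM in Crx-/-) had overlapping pairs. The pericyte gene Rgs5 was at 1.2 and 1.5 FPKM in CrxRip/+ and 2.0 and 3.3 FPKM in Crx-/-, and the beta-globin gene Hbb-bs at 1.7 and 1.6 FPKM in CrxRip/+ and 1.2 and 4.4 FPKM in Crx-/-. The pigment epithelium genes Ttr and Tyrp1 summed to 4.9 and 7.9 FPKM in CrxRip/+ and 7.7 and 9.5 FPKM in Crx-/-. In 1 of the 2, both CrxRip/+ samples lay below both Crx-/- samples, as in 26.5% of the table. None of these 6 genes was called by limma, and the part of such cells in the differences above was not tested. Fgf15, a growth factor of retinal progenitors, had 43.8 and 38.0 FPKM in CrxRip/+ and 30.8 and 23.0 FPKM in Crx-/-. Its rise of 0.60 (adjusted p = 0.039) was lost under the rescaling, without either CrxRip/+ sample (adjusted p = 0.164 and 0.0723), without the second Crx-/- sample (0.222) and in a fit of the 4 samples alone (0.08). Among immediate early genes, Egr1 fell, with 0.9 FPKM in both CrxRip/+ samples and 2.9 and 2.1 FPKM in Crx-/- (adjusted p = 0.00181). Jun had 16.7 and 13.7 FPKM in CrxRip/+ and 10.2 and 7.9 FPKM in Crx-/- and was not called. The stress gene Hmox1, a heme oxygenase, had 2.7 and 2.2 FPKM in CrxRip/+, against 5.0 and 5.7 FPKM in Crx-/- and 2.6 and 2.8 FPKM in wild type, a fall of 0.88 (adjusted p = 0.00386). Trp53inp1 was not called.

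Outside the lists, the largest falls among genes with at least 5 FPKM in the higher genotype were of 4 genes with other roles. Cacna1h, a T-type calcium channel, had 15.4 and 15.3 FPKM in CrxRip/+, against 28.4 and 37.6 FPKM in Crx-/- and 24.7 and 26.6 FPKM in wild type. Cltb, a clathrin light chain, had 49.8 and 52.3 FPKM in CrxRip/+, against 100.8 and 108.2 FPKM in Crx-/- and 81.5 and 84.1 FPKM in wild type. Gsg1l, an auxiliary subunit of AMPA receptors, had 1.9 and 2.0 FPKM in CrxRip/+, against 4.8 and 5.2 FPKM in Crx-/- and 2.6 and 2.9 FPKM in wild type. All 3 were lowest in CrxRip/+ and highest in Crx-/- among these genotypes, with differences of -1.04, -1.02 and -1.02 (adjusted p = 0.00128, 0.000641 and 0.000467). Gnpda1, an enzyme of amino sugar breakdown, had 3.3 and 1.5 FPKM in CrxRip/+ and 6.1 FPKM in both Crx-/- samples. Its call (adjusted p = 0.0138) was lost without the second CrxRip/+ sample (adjusted p = 0.0502) or either Crx-/- sample (0.0683 and 0.0795), and in a fit of the 4 samples alone (0.0561).

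Among the largest rises, several genes were near wild type in CrxRip/+ and lower in Crx-/-. Hddc3, which belongs to the HD domain hydrolases, had 24.0 FPKM in both CrxRip/+ samples, against 10.3 and 8.8 FPKM in Crx-/- and 19.9 and 22.9 FPKM in wild type. Htra1, a secreted serine protease, had 19.5 and 22.9 FPKM in CrxRip/+, against 8.4 and 10.3 FPKM in Crx-/- and 14.3 and 19.4 FPKM in wild type. Tnfsf9, a TNF family ligand that costimulates T cells, had 6.9 and 6.6 FPKM in CrxRip/+, against 2.8 and 2.7 FPKM in Crx-/- and 6.4 and 6.3 FPKM in wild type. In each, both Crx-/- samples were below the other 4, with differences of 1.25, 1.10 and 1.05 (adjusted p = 0.000703, 0.00244 and 0.000641). The zinc finger gene Zfp729a followed them with a difference of 0.94 (adjusted p = 0.00104).

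Slc1a5, a neutral amino acid transporter, had 4.9 and 5.1 FPKM in CrxRip/+, against 2.3 and 2.1 FPKM in Crx-/- and 5.9 and 5.0 FPKM in wild type. Cth, which makes cysteine from cystathionine, had 10 and 9.2 FPKM in CrxRip/+, against 4.9 and 4.5 FPKM in Crx-/- and 9.1 and 8.0 FPKM in wild type. Here too Crx-/- was the lowest of these 3 genotypes, and CrxRip/+ exceeded it by 0.91 (adjusted p = 0.00151) and 0.89 (adjusted p = 0.000641). By FPKM, 4 of these genes were as low in Nrl-/- retinas as in Crx-/- or lower. Hddc3 had 5.9 and 5.2 FPKM there, Tnfsf9 2.4 and 2.8 FPKM, Zfp729a 2.6 and 2.9 FPKM, and Cth 3.6 and 3.1 FPKM. The Nrl-/- samples were, however, low over the P2 genes as a whole. Their log2 scaling factors by the median of ratios were -0.75 and -0.81, against 0.10 and 0.08 in Crx-/-. These FPKM are not corrected for that offset, and Nrl-/- was not tested against Crx-/-. The 6 genes from Hddc3 to Cth were called under every alternative that was run.

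The other large rises were less stable. Klk1b22, a kallikrein of a family with near-identical copies, was listed at 23.1 and 26.8 FPKM in CrxRip/+, at 0 in both Crx-/- samples, and at 0 and 22.5 FPKM in the wild-type samples. The 2 wild-type samples thus differed as widely as the mutants, and the call (adjusted p = 0.02) was lost with any of the 4 samples left out (adjusted p 0.0711 to 0.0974). Rplp0, a ribosomal protein gene with many pseudogene copies, had 304.4 and 292.0 FPKM in CrxRip/+ and 209.9 and 107.1 FPKM in Crx-/-. Its Crx-/- samples lay apart, and the call (adjusted p = 0.039) was lost under the rescaling, without either CrxRip/+ sample (adjusted p = 0.127 and 0.113), without the second Crx-/- sample (0.147) and in a fit of the 4 samples alone (0.113). Pmepa1, an inhibitor of TGF-beta signalling, had 47.9 and 36.4 FPKM in CrxRip/+ and 26.9 and 18.4 FPKM in Crx-/-. L3hypdh, a hydroxyproline dehydratase, had 4.3 and 6.6 FPKM in CrxRip/+ and 2.7 and 2.5 FPKM in Crx-/-. Their pairs did not overlap (adjusted p = 0.033 and 0.0197). Pmepa1 was not called without the first CrxRip/+ or the second Crx-/- sample (adjusted p = 0.154 and 0.199), or in a fit of the 4 samples alone (0.0692). L3hypdh was not called without the second CrxRip/+ sample (0.099) or either Crx-/- sample (0.0727 and 0.11).

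**Figure D4:**
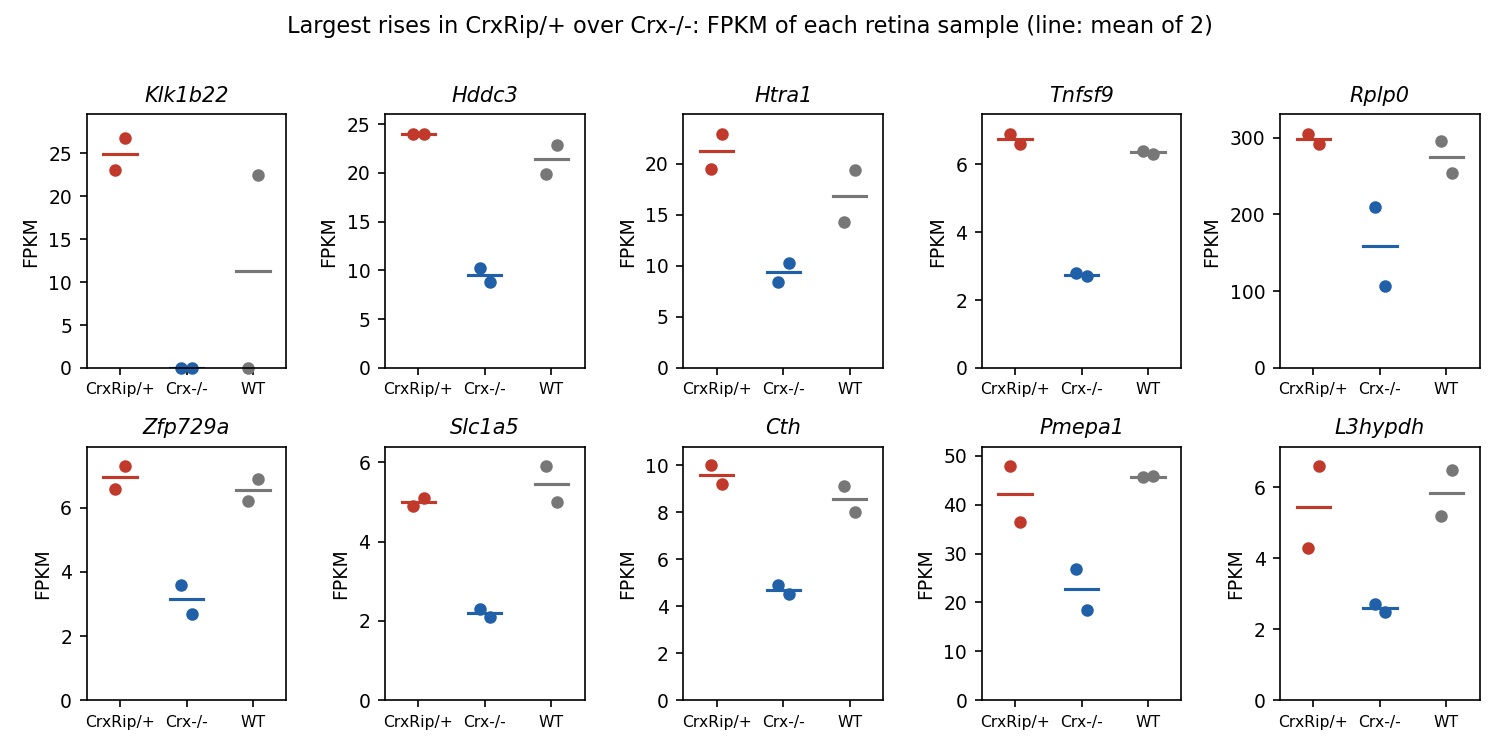
FPKM per P2 sample of genes with higher values in CrxRip/+, with CrxRip/+ left of Crx-/- and wild type last; points are samples and horizontal lines are group means. In Hddc3, Htra1 and Tnfsf9 both Crx-/- samples lie below the other 4, and Klk1b22 is at 0 in both Crx-/- samples and in 1 wild-type sample.

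The called genes differed in where wild type stood. The wild-type mean was nearer to CrxRip/+ in 81 of the 91 higher genes (89%) and nearer to Crx-/- in 40 of the 71 lower genes (56.3%). Over all 566 genes it was nearer to CrxRip/+ in 373 (65.9%). These positions use FPKM without rescaling. The log2 scaling factors by the median of ratios were 0.28 and 0.29 in wild type, 0.22 and 0.21 in CrxRip/+, and 0.10 and 0.08 in Crx-/-. Wild type thus shared the scale of CrxRip/+ more closely, and the positions were not recounted after rescaling. Of the higher genes 6 reached a difference of 1 on the log2(FPKM + 1) scale and 51 were under 0.5, and of the lower genes 16 reached 1 and 9 were under 0.5. The added 1 shrinks differences of low genes, and 59 of the 91 higher genes and 32 of the 71 lower genes were under 5 FPKM in both genotypes. In the authors' deposited table, 24 higher and 32 lower genes passed all of the authors' thresholds, which include a log2 fold change of at least 1.

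The same 2 genotypes at P21, in other animals' retinas, give the later values of these genes. The P21 table held 1497 genes, of which 788 were called (52.6%), 448 higher (29.9%) and 340 lower (22.7%) in CrxRip/+. The tables were scaled separately, and the ages were not tested against each other. Of the 25 genes higher at P2 that the P21 table holds, 16 were higher, 2 lower and 7 not called at P21. Of the 57 lower at P2, 36 were lower, 6 higher and 15 not called. Among all 198 genes that both ages hold, 63 were higher, 62 lower and 73 not called at P21.

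Samd7 and Obox6 stayed low in CrxRip/+ at P21. Samd7 had 1.7 and 2.0 FPKM in CrxRip/+, against 146.2 and 132.6 FPKM in Crx-/- and 41.6 and 43.5 FPKM in wild type. Obox6 had 0.4 and 0.5 FPKM in CrxRip/+, against 23.0 and 21.0 FPKM in Crx-/- and 0.2 and 0.4 FPKM in wild type. Both had Crx-/- highest and were called lower at each age, with P21 differences of -5.62 and -3.99 (adjusted p = 1.29e-08 and 2.53e-07). Ankrd33 stayed high, at 104.9 and 88.0 FPKM in CrxRip/+, against 2.8 and 2.2 FPKM in Crx-/- and 78.2 and 71.2 FPKM in wild type, a P21 difference of 4.80.

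The rod factors, not called at P2, were far apart at P21. Nrl had 0.9 and 0.4 FPKM in CrxRip/+, against 87.2 and 82.0 FPKM in Crx-/- and 466.1 and 427.6 FPKM in wild type. Nr2e3 had 1.7 and 1.0 FPKM in CrxRip/+, against 118.0 and 110.0 FPKM in Crx-/- and 223.7 and 198.8 FPKM in wild type. Both were almost lost in CrxRip/+ alone among these genotypes, with differences of -5.71 and -5.63 (adjusted p = 6.86e-08 and 9.58e-08).

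Cone genes split at P21, where 63 of all 198 genes that both ages hold were higher and 62 lower. Cnga3, Ccdc136, Opn1sw and Gnb3 were again called lower in CrxRip/+, Cngb3 was not called, and the other 5 of the 10 were called higher. Cnga3 had 0.2 FPKM in both CrxRip/+ samples, against 6.0 FPKM in both Crx-/- samples. Pde6c, lower at P2, had 76.3 and 118.9 FPKM in CrxRip/+, against 45.2 and 44.8 FPKM in Crx-/- and 30.9 and 33.3 FPKM in wild type, so CrxRip/+ was the highest genotype (difference 1.07, adjusted p = 0.00603).

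**Figure D5:**
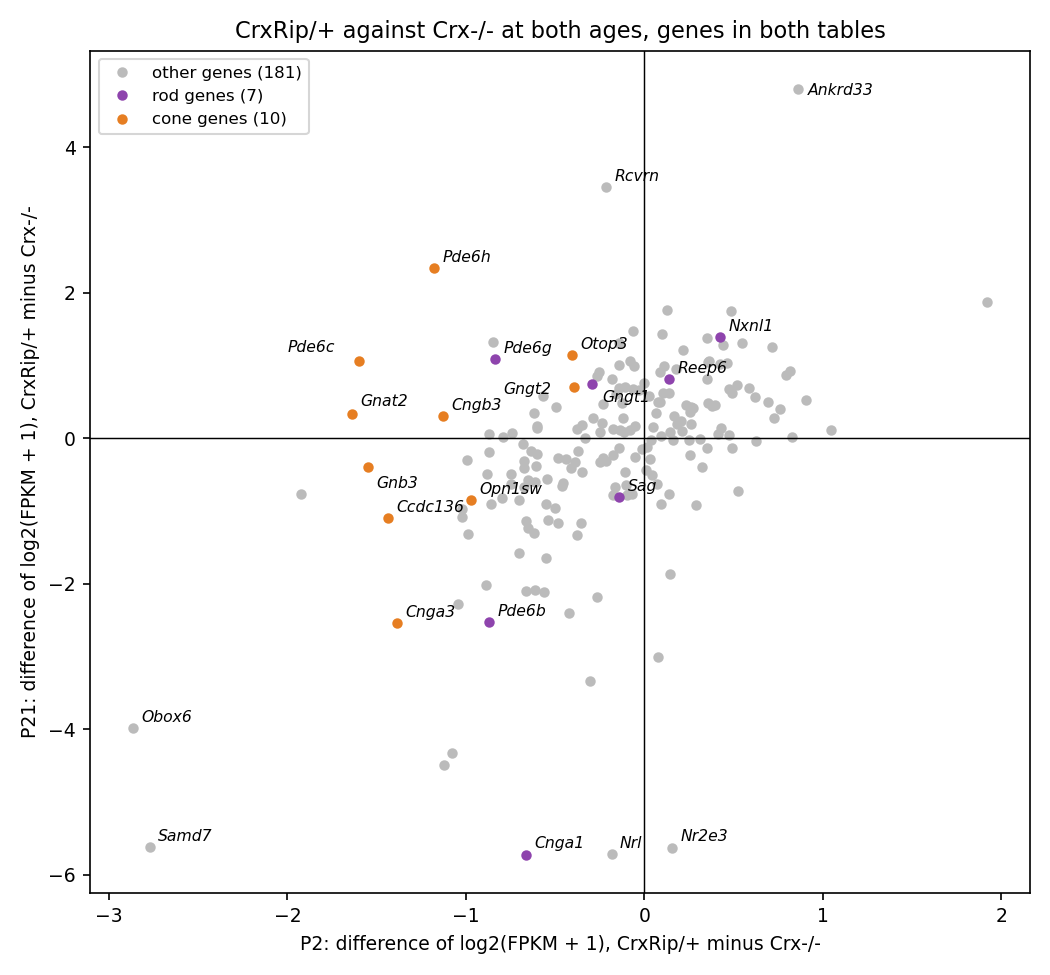
Difference of log2(FPKM + 1), CrxRip/+ minus Crx-/-, at P2 (x axis) and P21 (y axis) for the 198 genes in both tables; cone genes are orange and rod genes purple. Samd7 and Obox6 are negative at both ages, Nrl and Nr2e3 are near 0 at P2 and below -5 at P21, and Pde6c, Pde6h, Gnat2, Otop3 and Pde6g are negative at P2 and positive at P21.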

How the data were processed

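Libraries were made from total RNA of whole retina with a strand-preserving TruSeq protocol, per the labels. The authors' deposited table for each age gives FPKM per sample, rounded to 1 decimal, with adjusted p-values and log2 fold changes of their comparisons, per the file headers. DESeq is the tool named in the submitters' processing notes, with no version. The sources used here do not give the aligner, read counter or genome build. The read depth cannot be known from FPKM, so counting intervals are not given, and values below 1 FPKM are limited by rounding.

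The FPKM were fitted as log2(FPKM + 1) with limma (3.58.1, R 4.3.3) over all 10 P2 samples, with 1 term per genotype, a variance trend and empirical Bayes moderation, which left 5 residual degrees of freedom and added 2.95. Two-sided p-values received a Benjamini-Hochberg adjustment over all 566 genes. The P21 table was fitted alike. The scripts were tested on simulated data. Symbols were matched through RefSeq accessions for 563 genes, and 35 were replaced by current symbols. Named genes were, first, the members of the photoreceptor lists. The 10 called genes that rose most and the 10 that fell most were added, at 5 FPKM or more in the higher genotype and without overlap between the pairs. From the other lists only called members were named, with the Crx locus neighbours. Uncalled members of the other lists that are mentioned are not counted among the 63 named genes. The members and the 20 lists were chosen with earlier results of these data known, 1 gene of the lists is not reported here, and any gene outside the rule was picked with its values in view. The genes were selected on these same samples, so the share of false calls is not known. Alternatives were another pseudocount (0.1), a filter at a mean of 2 FPKM, rescaling by the median of ratios, a fit of the 4 samples alone, no trend, the replicate number as a block, and leaving out each sample.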

Additional observations from a re-analysis of the deposited data

Results flagged for a closer look

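Among the 63 named genes, 5 were called by limma in opposite directions at P2 and P21, with no overlap between the pairs at either age. Values are differences of log2(FPKM + 1), CrxRip/+ minus Crx-/-. All 5 are photoreceptor genes, but the photoreceptor lists supply 42 of the named genes. Over the whole P2 table, 6 of the 57 genes lower at P2 were higher at P21, and 2 of the 25 higher at P2 were lower. The difference between the ages itself was not tested. Pde6c was at -1.60 at P2 and 1.07 at P21, and Pde6h, the inhibitory subunit of the same cone enzyme, at -1.18 and 2.34. The P21 value of Pde6h rests on CrxRip/+ samples that lay far apart, at 37.5 and 149.9 FPKM, against 14.9 and 13.3 FPKM in Crx-/- and 86.3 and 78.4 FPKM in wild type. Gnat2 was at -1.64 at P2 and 0.33 at P21, where its samples had 157.8 and 162.0 FPKM in CrxRip/+ and 131.8 and 121.8 FPKM in Crx-/-. Otop3 was at -0.40 at P2 and 1.14 at P21, with 5.3 and 4.8 FPKM in CrxRip/+ and 1.7 and 1.8 FPKM in Crx-/- at the later age. Pde6g, the rod inhibitory subunit, was at -0.83 at P2 and 1.09 at P21, with 241.5 and 184.1 FPKM in CrxRip/+, against 108.6 and 89.8 FPKM in Crx-/- and 1345.4 and 1245.8 FPKM in wild type. The P2 calls of Otop3 and Pde6g were lost when some single samples were left out.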

How the results depend on the processing

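With 1 sample left out the called genes numbered 78 to 93 against 162 with all, 34 to 40 higher and 42 to 59 lower, with the lone sample assumed to vary like the other groups. The lower calls among the photoreceptor factors then numbered 1 to 3, those of the rod genes 0 to 2, and those of the shared phototransduction genes 1 to 2. The higher calls of the shared genes numbered 0 to 2, and those of the outer segment genes 0 to 1. After rescaling to median ratios there were 41 higher genes, 0 higher shared genes and 0 higher outer segment genes. A fit of the 4 samples alone gave 1 lower and 0 higher shared genes, and a pseudocount of 0.1 or the filter at 2 FPKM gave 1 higher shared gene. Deviations of samples with the same replicate number correlated at -0.24 to 0.33 across genes, so the numbers were not used as pairs; with them as a replicate block 168 genes were called, 2 of them outer segment genes. The counts of cone and synapse genes and the P21 count stayed within 1.5 times under all 10 alternatives. Of 46 named genes that were called, 27 were called under every alternative that could be run for them, and no named call changed direction. The 4 samples alone lost 12 of these calls, the rescaling 5 and the smaller pseudocount 3. Depth is unknown, and 11 named calls moved by over 1.5 times with the smaller pseudocount, since low genes depend on it.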

Other observations

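2 genes with under 5 FPKM lay outside the naming rule and were chosen once their values had been seen. Slc7a11, the cystine transporter, had 3.5 and 3.8 FPKM in CrxRip/+, against 0.6 and 0.5 FPKM in Crx-/- and 3.8 and 3.2 FPKM in wild type. It was low in Crx-/- alone among these 3 genotypes, 6.64-fold higher in CrxRip/+ by mean FPKM, with a difference of 1.58 on the log2(FPKM + 1) scale (limma, adjusted p = 3.29e-05). Nrl-/- retinas were as low by FPKM, at 0.5 and 0.4 FPKM, but those samples were low over the P2 genes as a whole. Tafa3, which encodes a small secreted protein, had 0.1 FPKM in both CrxRip/+ samples, against 2.8 and 3.6 FPKM in Crx-/- and 5.2 and 5.7 FPKM in wild type. Its difference was -1.93 (limma, adjusted p = 3.29e-05), and CrxRip/Rip retinas were as low as CrxRip/+, at 0.0 and 0.1 FPKM.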
